A study of Mus musculus with 6 samples.

Results

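The 37 genes described here encode enzymes of cholesterol and fatty acid synthesis, the proteins that switch these enzymes on and off, and proteins that move, store or take up sterol. They were chosen by gene symbol from pathway membership, and all 37 were found, by Ensembl identifier, among the 22246 genes of the expression table. The cells were HL-1, a cell line that was established from mouse atrial cardiomyocytes, labelled with the strain C57BL/6 and the tissue heart. In 3 libraries the cells carried an shRNA labelled as directed against Smyd4, and in 3 they carried a control shRNA. An shRNA is a short hairpin transcript that is processed to direct decay of a matching mRNA. The hairpin sequences, their delivery and the time of treatment were not given in the sources used here. Nor do the labels say whether replicate libraries were separate cultures, so p-values measure the spread between libraries only, which may be technical.

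Cholesterol and its precursors are built from acetyl units through mevalonate, farnesyl diphosphate and squalene, and fatty acids from acetyl units through malonyl units, elongation and desaturation. Both routes are switched on by the SREBP transcription factors, which are made as precursors in the endoplasmic reticulum membrane. The escort protein SCAP carries them to the Golgi for cleavage when sterol is low, and the INSIG proteins hold the complex back when sterol is plentiful. SREBP-2, encoded by Srebf2, acts mainly on cholesterol genes, and SREBP-1, encoded by Srebf1, mainly on fatty acid genes. Heart muscle cells burn fatty acids and also make sterols and fatty acids for membranes and isoprenoids, as other cells do.

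Reads recovered from the deposited values and summed over genes were 20755808 to 26387551 per library in the labelled Smyd4 shRNA group. In the control group they were 23414391 to 25267532. These sums are lower bounds, since the read numbers of 3320 genes are. Smyd4 mRNA itself stood at 12.3 ± 0.348 FPKM (fragments per kilobase of a gene's length, after scaling for depth) in the libraries labelled Smyd4 shRNA and at 12.9 ± 0.539 FPKM in the control libraries (SD, n = 3 each), with overlapping ranges (limma, adjusted p = 0.173). Smyd4 mRNA therefore goes against the label, and every direction below is relative to the label alone. The labelled cell type was checked against markers. Of 14 cardiomyocyte markers 13 had a row, and Nppa had none. Of the 13, 4 averaged at least 1 FPKM (Gja1, Tnnt2, Gata4 and Nkx2-5). Another 7 averaged under 0.1 FPKM, among them the cardiac myosin gene Myh6, the atrial myosin light chain gene Myl7 and the cardiac actin gene Actc1. Most of the listed cardiomyocyte markers thus do not bear out the labelled cell type. The 13 summed to 174 to 175 FPKM in the libraries labelled Smyd4 shRNA and 164 to 167 FPKM in the control libraries. Of this sum, Gja1 made up 145 FPKM in the libraries labelled Smyd4 shRNA and 146 FPKM in the control libraries. Nkx2-5 averaged 7.68 FPKM in the libraries labelled Smyd4 shRNA and 3.57 FPKM in the control libraries (limma, adjusted p = 0.000215), and Tnnt2 11.7 FPKM in the libraries labelled Smyd4 shRNA and 7.11 FPKM in the control libraries (limma, adjusted p = 6.2e-06). Of 6 fibroblast markers 5 averaged at least 1 FPKM, and their sum was 270.0 to 282 FPKM in the libraries labelled Smyd4 shRNA and 239 to 246 FPKM in the control libraries. Within that list Col1a1 averaged 69.3 FPKM in the libraries labelled Smyd4 shRNA and 37.6 FPKM in the control libraries, and Dcn 1.72 FPKM in the libraries labelled Smyd4 shRNA and 26.3 FPKM in the control libraries. The macrophage markers summed to 2.44, 2.56 and 5.53 FPKM in the libraries labelled Smyd4 shRNA, against 2.05 to 2.35 FPKM in the control libraries, with the defining genes Ptprc and Adgre1 at or near 0. The highest of these sums, in replicate 3 of the libraries labelled Smyd4 shRNA, held 3.74 FPKM of Lyz2. The 4 endothelial markers summed to at most 0.567 FPKM in a library labelled Smyd4 shRNA, that of replicate 3, and to at most 0.168 FPKM in a control library. The part of these marker differences in the results below was not tested. In RNA from whole cultures, fewer cells of a type and less RNA per cell cannot be told apart.

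Most of the 37 genes differed between the groups, and most of these were higher in the libraries labelled Smyd4 shRNA, by small amounts. All 37 averaged at least 1 FPKM over the 6 libraries and were tested. Called genes, those with an adjusted p under 0.05 in limma on log2(FPKM + 0.5), numbered 30, with 23 higher and 7 lower. Among all 11325 genes tested, 25.1% were called higher, 23.3% lower and 48.3% in either direction, beside 62.2%, 18.9% and 81.1% of the 37 genes. The median level was 26.7 FPKM for the 37 genes and 9.53 FPKM for all genes tested. With a filter at a mean of 5 FPKM, 4337 of 7833 genes were called, and 23 of the 37 genes were higher and 6 lower. Npc1, Fdps and Tm7sf2 average below that filter and were not tested with it, so Npc1 left the lower genes without a lost call. The part of expression level in these shares was not tested. Scaled to an equal total per library, the genes called in the whole table split into 2202 higher and 3112 lower, against 2839 and 2635 as deposited, and the 37 genes into 19 higher and 9 lower. Without replicate 3 of the labelled libraries, 20 of the 37 genes were called higher and 6 lower, beside 2555 higher and 2442 lower among all 11325 genes tested. The groups did not overlap for 32 of the 37 genes (86.5%), beside 57.8% of all genes tested. The changes were small: the median log2 change was 0.11 for the 37 genes and 0.02 for all genes tested, and a called change had a median size of 0.19 among the 37 genes and 0.24 among all, on the log2 scale. Called changes of at least 1.25-fold on this scale numbered 6 among the 37 genes, and 1 of these, Npc1, reached 1.5-fold. Among all 11325 genes tested, 1866 were called at 1.25-fold or more, and 783 of these reached 1.5-fold.

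**Figure D1:**
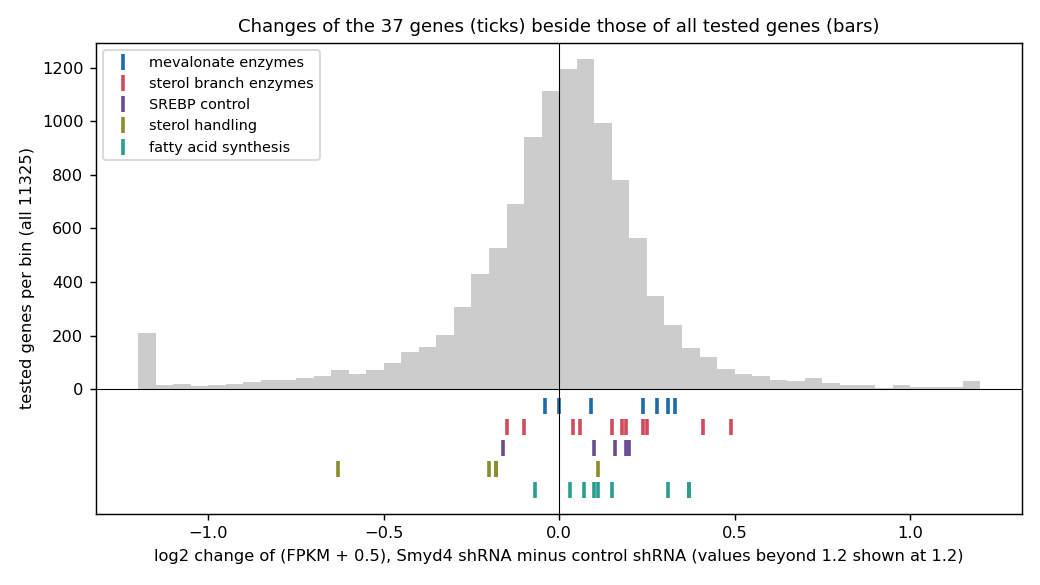
Distribution of log2 changes (libraries labelled Smyd4 shRNA minus control libraries, n = 3 each) of all 11325 tested genes as grey bars, with each of the 37 genes as a tick in the row of its role. The synthesis rows lie mostly right of 0, the row of sterol handling genes lies mostly left of 0, and Npc1 at -0.63 is the tick farthest out.

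The authors' deposited table of called genes lists 28 of the 37, 22 of them higher and 6 lower, and all 28 were also called here in limma. Of all 11325 genes tested it lists 4803, and 4678 of those were also called here, so such a match is usual for a listed gene. Insig2 and Mylip were called here and are not in that list. Replicates were close: the median SD between replicates was 0.04 on the log2 scale for the 37 genes and 0.05 for all genes tested. The reads behind a value ran from 139 per library for Fdps to 64319 for Scd2.

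**Figure D2:**
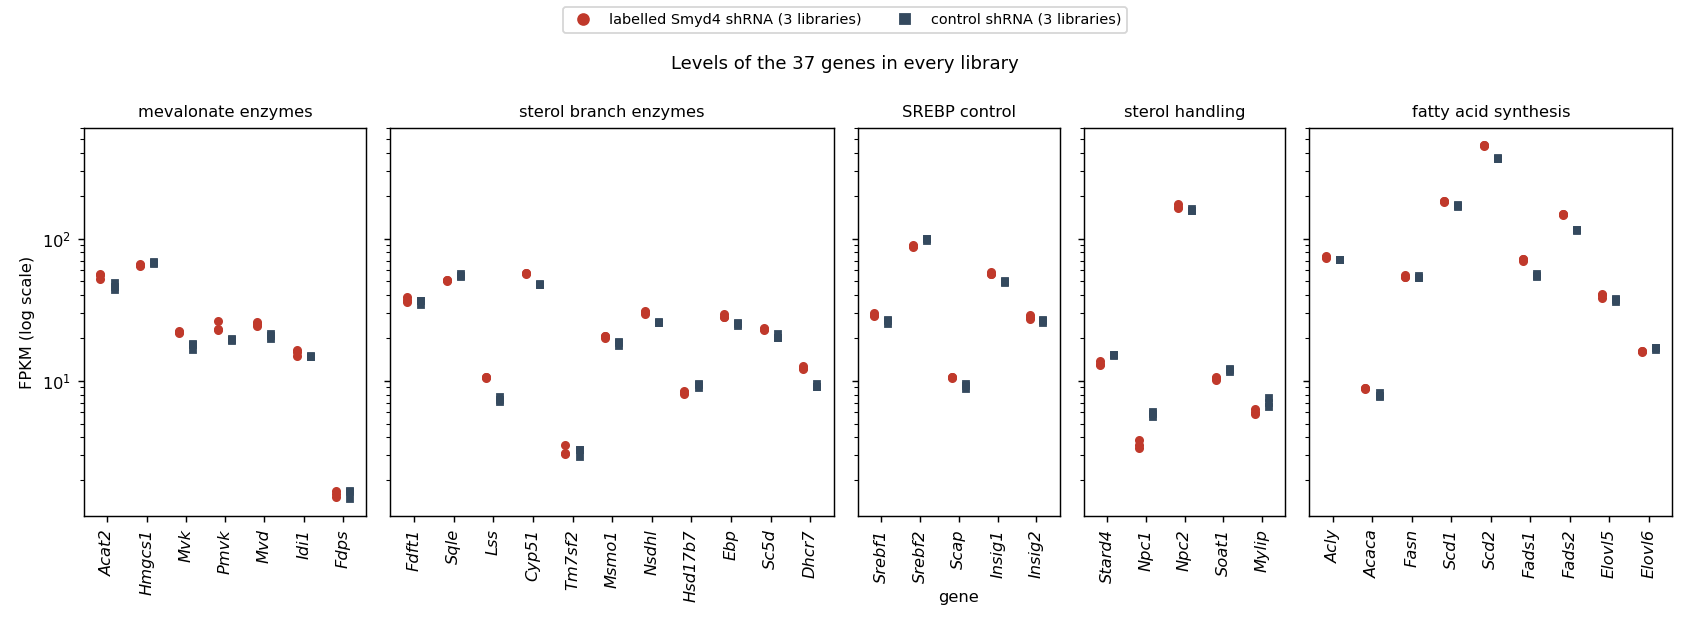
FPKM (log axis) of the 37 genes in each of the 3 libraries labelled Smyd4 shRNA (circles, left) and the 3 control libraries (squares, right), by role. Levels span from 1.60 FPKM for Fdps to 409 FPKM for Scd2 on average, and the separation of the groups is small beside the spread between genes.

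Promoter sequences are shown for 5 genes with different outcomes, chosen among those with an entry in the RefSeq table: Mvk and Lss, the mevalonate and sterol branch genes with the largest rises, Insig1, which was higher, Hmgcs1, which did not pass the test, and Srebf2, which was lower. The stretches end before the gene start in the files and begin up to 250 bases upstream of the RefSeq start (GRCm38.p6, plus strand for all 5), and capitals mark matches on either strand to the motifs named below.
Mvk, chr5:114444019-114444268: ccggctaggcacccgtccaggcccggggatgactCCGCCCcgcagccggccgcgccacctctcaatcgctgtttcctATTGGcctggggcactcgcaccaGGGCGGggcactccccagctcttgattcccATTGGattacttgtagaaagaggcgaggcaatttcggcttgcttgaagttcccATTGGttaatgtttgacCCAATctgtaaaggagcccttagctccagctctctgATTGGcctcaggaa
Lss, chr10:76531355-76531587: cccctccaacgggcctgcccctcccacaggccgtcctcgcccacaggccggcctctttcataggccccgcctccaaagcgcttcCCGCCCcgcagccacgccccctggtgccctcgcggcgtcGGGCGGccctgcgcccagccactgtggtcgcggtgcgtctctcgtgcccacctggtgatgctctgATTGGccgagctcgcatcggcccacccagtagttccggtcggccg
Insig1, chr5:28071162-28071362: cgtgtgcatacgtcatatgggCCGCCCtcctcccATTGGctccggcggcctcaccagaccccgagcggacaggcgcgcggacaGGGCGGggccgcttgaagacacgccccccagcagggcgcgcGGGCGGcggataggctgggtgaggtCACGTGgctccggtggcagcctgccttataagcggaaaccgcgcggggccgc
Hmgcs1, chr13:119690101-119690350: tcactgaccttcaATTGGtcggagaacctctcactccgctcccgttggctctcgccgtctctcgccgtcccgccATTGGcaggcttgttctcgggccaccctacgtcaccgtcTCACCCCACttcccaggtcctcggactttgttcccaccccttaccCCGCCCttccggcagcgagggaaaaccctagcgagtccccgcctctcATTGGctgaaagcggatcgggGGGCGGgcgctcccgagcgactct
Srebf2, chr15:82147019-82147265: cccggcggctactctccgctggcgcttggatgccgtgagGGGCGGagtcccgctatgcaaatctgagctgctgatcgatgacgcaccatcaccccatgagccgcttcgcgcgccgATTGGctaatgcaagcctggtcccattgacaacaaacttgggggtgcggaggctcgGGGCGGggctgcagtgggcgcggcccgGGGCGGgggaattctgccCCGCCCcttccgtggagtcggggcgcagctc

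The motifs were searched on both strands, and no match overlapped a match to another motif. These were the sterol regulatory element, bound by SREBP, as TCACNCCAC, the CCAAT box, bound by NF-Y, as CCAAT, the GC box, bound by Sp1, as GGGCGG, and the E-box as CACGTG. NF-Y and Sp1 are known to act beside SREBP at many of its targets. Of the 37 genes, 29 had an entry in the RefSeq table, with 37 promoters between them. The CCAAT box was present in 24 of these 37 promoters (64.9%), beside 35.7% of 10690 promoters of tested genes and 33.8% of all 32851 promoters of the same length. At least 2 copies stood in 37.8% of the members' promoters, beside 13.3% and 10.1%. The GC box was present in 70.3%, beside 59.7% and 32.7%, and the E-box in 16.2%, beside 8.51% and 6.02%. The sterol regulatory element in the spelling searched was present in 1 promoter, that of Hmgcs1 (2.7%, beside 0.973% and 1.05%). Taking 1 promoter per gene, the CCAAT box was present in 14 of 20 genes called higher, 4 of 4 called lower and 4 of 5 that did not pass. The motif was thus present in genes of every outcome, as the printed promoters of Mvk, Hmgcs1 and Srebf2 show. These matches describe letters in the window and were not tested against the changes.

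Of the 7 mevalonate genes, which take acetyl units to farnesyl diphosphate, 4 were higher, none was lower and 3 did not pass (57.1% called, beside 48.3% of all genes tested); the median log2 change was 0.24. The 4 were Acat2, Mvk, Pmvk and Mvd, and their calls held under all 16 alternative settings. Mvk encodes mevalonate kinase (chromosome 5, 114444269 to 114460591, plus strand) and stood at 22.1, 22.2 and 21.8 FPKM in the libraries labelled Smyd4 shRNA, against 16.4, 18.1 and 17.7 FPKM in the control libraries. Every labelled library was above every control library, the means differed by 26.3%, and the log2 change was 0.33 (standard error 0.04; limma, adjusted p = 0.000274). Pmvk, whose kinase acts on the product of Mvk, stood at 26.1, 22.9 and 23.1 FPKM in the libraries labelled Smyd4 shRNA and at 19.7, 18.9 and 19.3 FPKM in the control libraries. The highest value was that of replicate 1 of the labelled libraries, and the groups did not overlap (log2 change 0.31, limma, adjusted p = 0.00162). Mvd, encoding the decarboxylase that follows, stood at 26.0, 25 and 24.2 FPKM in the libraries labelled Smyd4 shRNA, against 19.7, 20.7 and 21.3 FPKM in the control libraries, a log2 change of 0.28 (limma, adjusted p = 0.000753). The 3 consecutive steps from mevalonate to isopentenyl diphosphate were therefore each higher.

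Acat2, whose thiolase joins acetyl units at the start of the route, stood at 55.4, 52.0 and 56.4 FPKM in the libraries labelled Smyd4 shRNA and at 45.6, 43.7 and 49 FPKM in the control libraries. The groups did not overlap, and the log2 change was 0.24 (limma, adjusted p = 0.00374). A stretch covering 65.6% of its longest transcript matches transcripts of other genes at 95% identity or more, mainly Tcp1 at 76.1 FPKM, so reads may have been shared. Hmgcs1, the synthase one step before mevalonate is made, did not follow: it stood at 64.5, 64.8 and 66.3 FPKM in the libraries labelled Smyd4 shRNA, against 66.9, 68.1 and 66.4 FPKM in the control libraries. The groups nearly touched, and the 95% interval of the change ran from -6.57% to 1.0% (limma, adjusted p = 0.192). With an equal total per library it passed as lower (limma, adjusted p = 0.0485). Idi1, the isomerase of isopentenyl diphosphate, averaged 15.7 ± 0.828 FPKM in the libraries labelled Smyd4 shRNA and 14.8 ± 0.132 FPKM in the control libraries (SD, n = 3 each), with an interval from -0.527% to 13.2%. It passed as higher when replicate 1 of the labelled libraries was left out, and under no other alternative (limma, adjusted p = 0.0288). Fdps, encoding farnesyl diphosphate synthase, averaged 1.61 FPKM in the libraries labelled Smyd4 shRNA and 1.60 FPKM in the control libraries, with an interval from -11.4% to 13.4%. This level is uncertain: 91.4% of its longest transcript matches other genes, 4 of them pseudogenes, and reads may have been split among them.

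Of the 11 genes of the sterol branch, from squalene to cholesterol, 7 were higher, 2 were lower and 2 did not pass (81.8% called, beside 48.3%); the median log2 change was 0.18. The largest rise among the 37 genes was that of Lss, encoding lanosterol synthase, which folds oxidised squalene into the first sterol (chromosome 10, 76531588 to 76557138, plus strand). It stood at 10.6, 10.6 and 10.4 FPKM in the libraries labelled Smyd4 shRNA, against 7.34, 7.69 and 7.07 FPKM in the control libraries. The gap between the groups was many times the spread within either, the means differed by 43.0%, and the log2 change was 0.49 (standard error 0.04; limma, adjusted p = 2.7e-05). Dhcr7, encoding the reductase of the last step to cholesterol by one of its routes (chromosome 7, 143823145 to 143848410, plus strand), stood at 12.7, 12.1 and 12.3 FPKM in the libraries labelled Smyd4 shRNA and at 9.08, 9.07 and 9.41 FPKM in the control libraries. Its mean was 34.2% higher, or 0.41 ± 0.03 on the log2 scale (change and standard error; limma, adjusted p = 3.7e-05). Cyp51, encoding the lanosterol demethylase, stood at 56.1, 56.8 and 57.3 FPKM in the libraries labelled Smyd4 shRNA, against 47.4, 48.0 and 47.3 FPKM in the control libraries. Both groups were tight, and the mean was 19.3% higher (log2 change 0.25, limma, adjusted p = 6.6e-05).

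The other 4 genes that rose in the sterol branch were Nsdhl, Ebp, Sc5d and Msmo1, which encode enzymes that remove methyl groups or move and add double bonds in the sterol rings. Their means were 11.1% to 18.7% higher, with Msmo1 lowest and Nsdhl highest in that range. Nsdhl averaged 30.4 ± 0.549 FPKM in the libraries labelled Smyd4 shRNA and 25.6 ± 0.251 FPKM in the control libraries (SD, n = 3 each; limma, adjusted p = 0.000164). Against these, Sqle, encoding the epoxidase just before lanosterol synthase and a known control point of the route, was lower, at 50.6, 50.9 and 51.2 FPKM in the libraries labelled Smyd4 shRNA, against 56.0, 54.0 and 54.2 FPKM in the control libraries. The groups did not overlap, and the mean was lower by a small amount (log2 change -0.10, standard error 0.02, limma, adjusted p = 0.00986). Hsd17b7, encoding the ketoreductase that works between Nsdhl and Ebp, stood at 8.04, 8.44 and 8.39 FPKM in the libraries labelled Smyd4 shRNA and at 9.40, 8.86 and 9.50 FPKM in the control libraries. Its log2 change was -0.15 (limma, adjusted p = 0.0154), and the call was lost without replicate 1 of the labelled libraries (adjusted p = 0.0505) and without control replicate 1 (0.054) or 3 (0.052), which left Sqle as the 1 lower gene of the branch in each case. Neighbouring steps thus went opposite ways at 2 places in the route, Sqle beside Lss and Hsd17b7 beside Nsdhl and Ebp.

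The 2 genes of the branch that did not pass were Fdft1, the squalene synthase gene, and Tm7sf2, which encodes a sterol reductase. Fdft1 averaged 37.1 ± 1.79 FPKM in the libraries labelled Smyd4 shRNA and 35.5 ± 1.17 FPKM in the control libraries (SD, n = 3 each; limma, adjusted p = 0.244), with an interval from -2.21% to 11.5%. It overlaps Ctsb, a gene at 208 FPKM on the other strand, and the use of strand in counting was not given in the sources used here. Tm7sf2 averaged 3.24 FPKM in the libraries labelled Smyd4 shRNA and 3.14 FPKM in the control libraries, with an interval from -8.70% to 15.0%, and it overlaps Vps51 at 6.08 FPKM on the same strand.

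**Figure D3:**
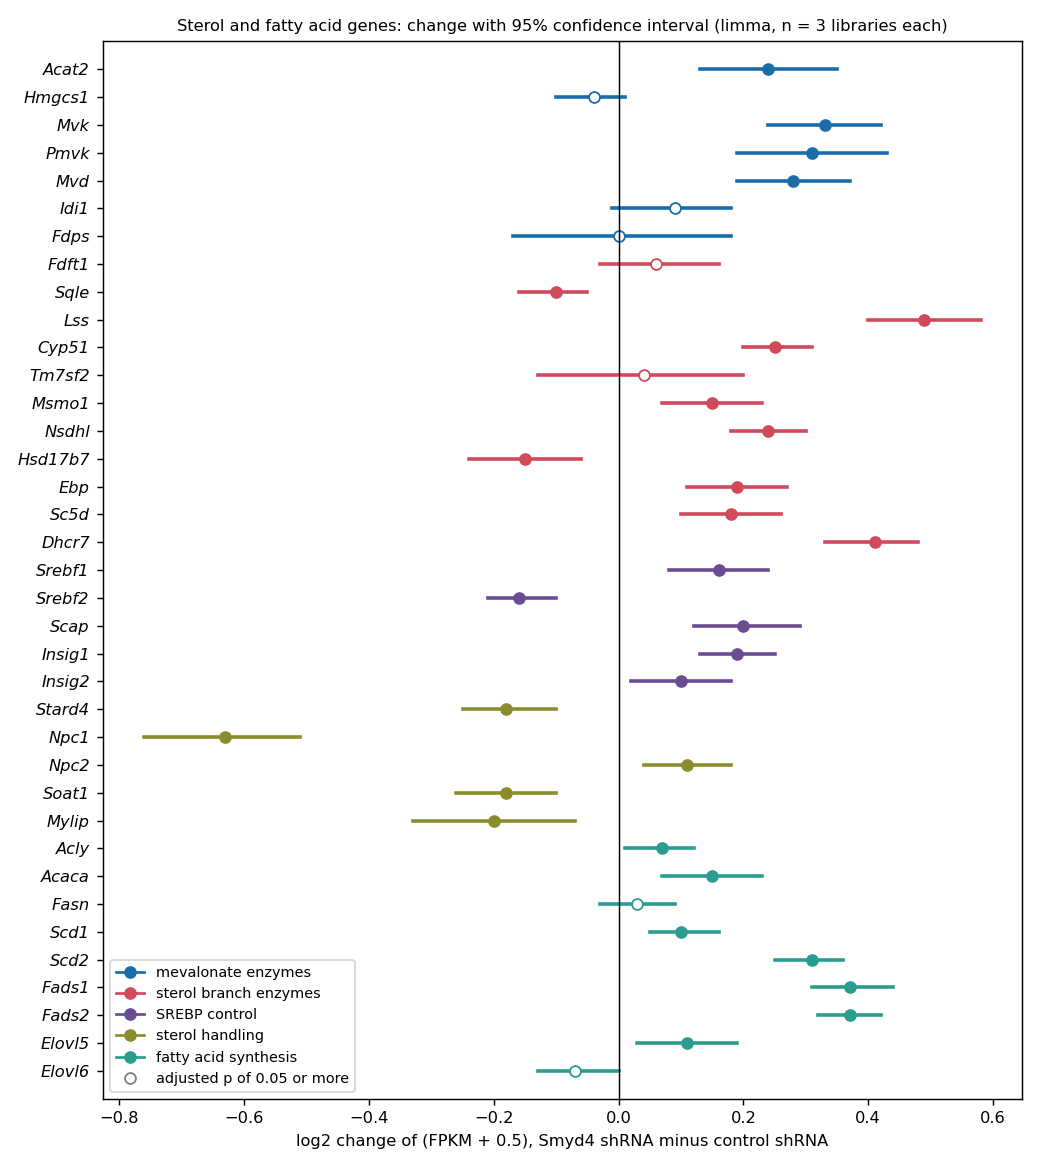
Log2 change of FPKM + 0.5 (libraries labelled Smyd4 shRNA minus control libraries) of the 37 genes with 95% confidence intervals from limma, coloured by role, with open circles for genes that did not pass. Lss at 0.49 and Dhcr7 at 0.41 lie farthest right and Npc1 at -0.63 farthest left.

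The 5 genes that control the pathway all passed, 4 higher and 1 lower. This was 80.0% higher and 20.0% lower, beside 25.1% and 23.3% of all genes tested, of which 48.3% were called. Srebf2, encoding SREBP-2 (chromosome 15, 82147266 to 82205376, plus strand), had the highest level of the 5 and was the lower one. It stood at 89.4, 88.1 and 87.1 FPKM in the libraries labelled Smyd4 shRNA, against 100, 96.6 and 98.6 FPKM in the control libraries. The groups were well apart relative to their spread, and the log2 change was -0.16 (standard error 0.02; limma, adjusted p = 0.00124). Srebf1, encoding SREBP-1, was higher, at 30.1, 28.3 and 29.0 FPKM in the libraries labelled Smyd4 shRNA and 26.3, 25 and 26.6 FPKM in the control libraries, a log2 change of 0.16 (limma, adjusted p = 0.00629). The groups did not overlap, and the mean was 12.0% higher. Srebf1 overlaps Rai1, at 11.5 FPKM on the other strand.

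Scap, the escort of both SREBPs, stood at 10.7, 10.6 and 10.4 FPKM in the libraries labelled Smyd4 shRNA, against 9.41, 8.78 and 9.12 FPKM in the control libraries (log2 change 0.20, limma, adjusted p = 0.00245). Insig1, an SREBP target whose product retains the SCAP complex, stood at 56.3, 55.9 and 57.8 FPKM in the libraries labelled Smyd4 shRNA and at 48.6, 49.6 and 50.2 FPKM in the control libraries. Neither gene's groups overlapped, and Insig1 was 14.5% higher (log2 change 0.19, limma, adjusted p = 0.000523). Insig2, its relative, stood at 27.2, 27.9 and 29.2 FPKM in the libraries labelled Smyd4 shRNA, against 26.8, 25.5 and 26.4 FPKM in the control libraries. The groups came close to touching, and the change (log2 0.10, limma, adjusted p = 0.0496) was lost under 12 of the 16 alternatives, with adjusted p from 0.05 to 0.209 in those 12. Leaving out any 1 library except replicate 1 of the labelled group was enough to lose it.

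Of the 5 genes that handle sterol after synthesis or uptake, 4 were lower and 1 was higher, with a median log2 change of -0.18. This was 80.0% lower and 20.0% higher, beside 23.3% and 25.1% of all genes tested. Most called synthesis genes were higher instead. The 5 genes are few, and the Npc2 and Mylip calls were lost under some alternatives, as given below. Npc1 encodes the membrane protein that lets cholesterol out of lysosomes, and it had the largest change of the 37 genes (chromosome 18, 12189693 to 12236400, minus strand). It stood at 3.51, 3.35 and 3.80 FPKM in the libraries labelled Smyd4 shRNA, against 5.99, 5.80 and 5.55 FPKM in the control libraries. The highest labelled library was well below the lowest control library, and the log2 change was -0.63 (standard error 0.06; limma, adjusted p = 4.8e-05). Npc1 overlaps Rmc1, at 4.52 FPKM on the other strand. Npc2, whose soluble product hands cholesterol to NPC1, moved the other way, at 176, 165 and 167 FPKM in the libraries labelled Smyd4 shRNA and 155, 155 and 161 FPKM in the control libraries. Its groups did not overlap, and the mean was 7.92% higher (log2 change 0.11, limma, adjusted p = 0.0233). The Npc2 call was lost without replicate 1 of the labelled libraries (adjusted p = 0.0621), without control replicate 1 (0.0732) or 2 (0.0797), and without the filter on low values (0.0543), and then none of the 5 was called higher.

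Soat1, encoding the enzyme that esterifies cholesterol for storage, stood at 10.1, 10.6 and 10.5 FPKM in the libraries labelled Smyd4 shRNA, against 11.9, 12.0 and 11.6 FPKM in the control libraries (log2 change -0.18, limma, adjusted p = 0.00326). Stard4, encoding a cytosolic sterol carrier and an SREBP target, stood at 12.9, 13.7 and 13.2 FPKM in the libraries labelled Smyd4 shRNA and at 15.2, 15.0 and 15.2 FPKM in the control libraries (log2 change -0.18, limma, adjusted p = 0.00262). For both genes every labelled library was below every control library. Mylip, which encodes a ubiquitin ligase and is induced by the sterol sensor LXR, stood at 6.29, 6.02 and 5.82 FPKM in the libraries labelled Smyd4 shRNA, against 6.52, 7.02 and 7.52 FPKM in the control libraries. The log2 change was -0.20 (limma, adjusted p = 0.0195), and the call was lost under 7 of the 16 alternatives, with adjusted p from 0.0507 to 0.0573 in those. The libraries whose removal lost it were replicates 2 and 3 of each group.

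Of the 9 genes of fatty acid synthesis, elongation and desaturation, 7 were higher, none was lower and 2 did not pass (77.8% called, beside 48.3%); the median log2 change was 0.11. The highest levels and the largest changes in this role were those of desaturase genes. Scd2, encoding a stearoyl-CoA desaturase that makes monounsaturated fatty acids (chromosome 19, 44293676 to 44306864, plus strand), had the highest FPKM of the 37 genes, at 451, 452 and 453 FPKM in the libraries labelled Smyd4 shRNA, against 364, 369.8 and 363 FPKM in the control libraries. The spread within each group was small beside the gap, and the log2 change was 0.31 (standard error 0.02; limma, adjusted p = 1.9e-05). Its neighbour and relative Scd1 (44394451 to 44407709, minus strand) stood at 183, 183 and 181 FPKM in the libraries labelled Smyd4 shRNA and at 170.2, 172 and 168 FPKM in the control libraries. The groups did not overlap, and the log2 change was 0.10 (limma, adjusted p = 0.00608), with the call lost under quantile normalization (adjusted p = 0.0534) and with an equal total per library (0.057). Scd1 and Scd2 share 11.4% of the longest Scd2 transcript at 95% identity or more.

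Fads1 and Fads2, which encode the desaturases of polyunsaturated fatty acids and lie near each other on chromosome 19, moved by nearly the same amount. Fads2 (10064164 to 10101503, minus strand) stood at 149, 147 and 148 FPKM in the libraries labelled Smyd4 shRNA, against 114, 113 and 115 FPKM in the control libraries. Fads1 (10182888 to 10196870, plus strand) stood at 71.9, 71.4 and 70.0 FPKM in the libraries labelled Smyd4 shRNA, against 54.7, 56.1 and 53.4 FPKM in the control libraries. No library crossed between groups in either gene, and the means were 29.7% higher for Fads2 and 29.8% higher for Fads1. The log2 change was 0.37 for each (limma, adjusted p = 4.8e-06 for Fads2 and 1.7e-05 for Fads1).

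Of the genes that supply and build the chain, Acly and Acaca were higher and Fasn did not pass. Acly, whose lyase supplies acetyl units from citrate, stood at 75.2, 73.6 and 73.1 FPKM in the libraries labelled Smyd4 shRNA, against 71.0, 70.1 and 70.3 FPKM in the control libraries (log2 change 0.07, limma, adjusted p = 0.0424). Its groups did not overlap, but the call was lost under 11 of the 16 alternatives, including the removal of any 1 library, with adjusted p from 0.0532 to 0.31 in those. Acaca, encoding acetyl-CoA carboxylase, averaged 8.82 ± 0.0612 FPKM in the libraries labelled Smyd4 shRNA and 7.89 ± 0.235 FPKM in the control libraries (SD, n = 3 each; log2 change 0.15, limma, adjusted p = 0.00796), and 64.3% of its longest transcript matches 1 pseudogene. Fasn, the fatty acid synthase gene, averaged 54.5 ± 1.08 FPKM in the libraries labelled Smyd4 shRNA and 53.4 ± 0.903 FPKM in the control libraries (SD, n = 3 each; limma, adjusted p = 0.4). At 12197 or more reads per library, the interval of its change ran from -2.22% to 6.46%.

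The 2 elongase genes differed in sign. Elovl5, which extends polyunsaturated fatty acids, stood at 38.1, 40.8 and 39.8 FPKM in the libraries labelled Smyd4 shRNA and at 37.6, 35.8 and 36.8 FPKM in the control libraries (log2 change 0.11, limma, adjusted p = 0.0311). The lowest labelled library was just above the highest control library, and the call was lost under 9 of the 16 alternatives, with adjusted p from 0.0509 to 0.17 in those. The libraries whose removal lost it were again replicates 2 and 3 of each group. Elovl6, which extends saturated chains, stood at 16.0, 16.2 and 16.1 FPKM in the libraries labelled Smyd4 shRNA, against 17.1, 17.0 and 16.5 FPKM in the control libraries, and did not pass (log2 change -0.07, limma, adjusted p = 0.0884). It passed as lower with an equal total per library (adjusted p = 0.0451). Of the 9 genes, 4 were called higher under quantile normalization and 4 with an equal total.

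**Figure D4:**
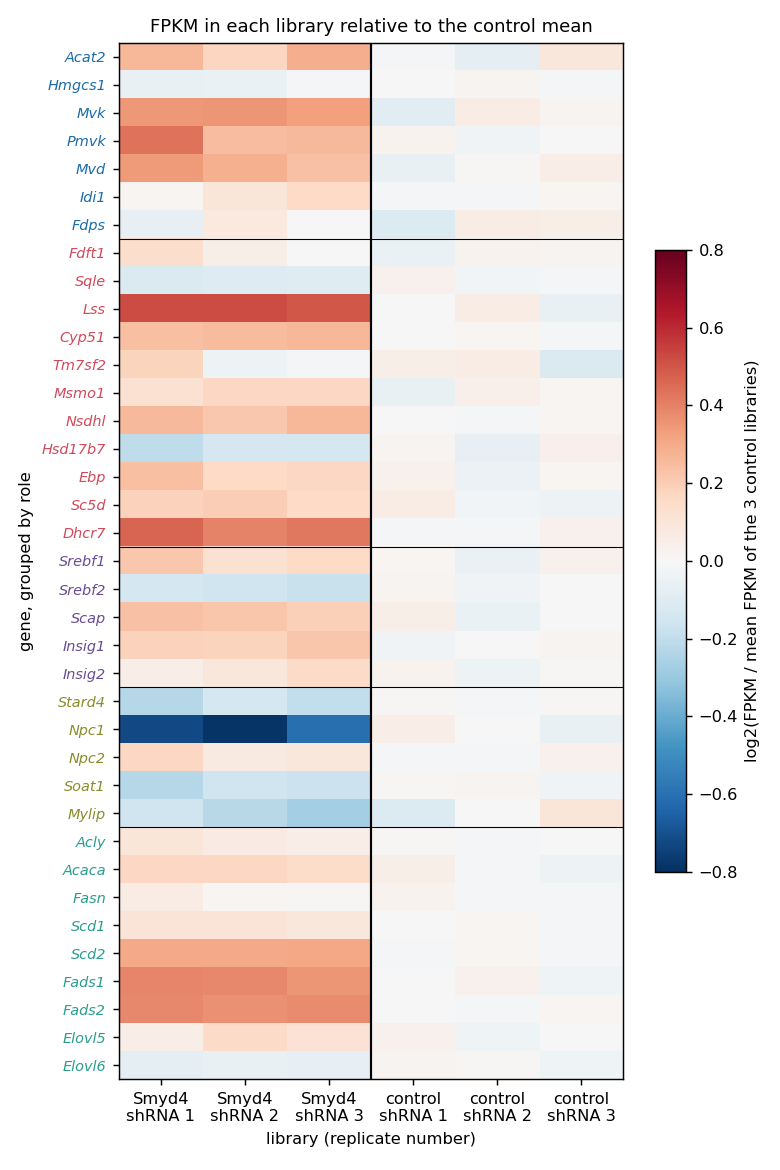
Log2 ratio of FPKM in each library to the mean of the 3 control libraries, for the 37 genes in rows by role, with the 3 libraries labelled Smyd4 shRNA on the left. The 3 labelled libraries share their colour in most rows, as in Lss, Dhcr7, Fads1 and Fads2 (higher) and Npc1 (lower).

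Summed over genes, the balance within the pathway can be read per length. The 37 genes together held 1966, 1940.4 and 1947 FPKM in the libraries labelled Smyd4 shRNA, against 1738, 1736 and 1740.2 FPKM in the control libraries. This was 0.552%, 0.558% and 0.551% of all FPKM in the libraries labelled Smyd4 shRNA and 0.510%, 0.510% and 0.498% in the control libraries. The fatty acid genes made up more of the sum than any other role, with 1043 to 1049.6 FPKM in the libraries labelled Smyd4 shRNA and 883 to 895 FPKM in the control libraries. The sterol branch summed to 280.2 to 284 FPKM in the libraries labelled Smyd4 shRNA and to 256 FPKM in each control library. The summed levels of the control genes and of the sterol handling genes overlapped between the groups.

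Shares within 4 pairs of related genes were compared, each as the first gene's part of the summed FPKM of the pair. Scd1 made up 28.8% ± 0.180 of Scd1 plus Scd2 in the libraries labelled Smyd4 shRNA and 31.7% ± 0.135 in the control libraries (SD, n = 3 each), a difference of -2.96 percentage points. Srebf1 made up 24.8% ± 0.444 of Srebf1 plus Srebf2 in the libraries labelled Smyd4 shRNA and 20.9% ± 0.342 in the control libraries (SD, n = 3 each), a difference of 3.92 points. The balance of the desaturases thus lay further toward Scd2, and that of the SREBP genes further toward Srebf1, in the labelled libraries. Insig1 made up 66.8% ± 0.509 of Insig1 plus Insig2 in the libraries labelled Smyd4 shRNA and 65.3% ± 0.810 in the control libraries (SD, n = 3 each), a difference of 1.51 points. Elovl5 made up 71.1% ± 0.564 of Elovl5 plus Elovl6 in the libraries labelled Smyd4 shRNA and 68.5% ± 0.689 in the control libraries (SD, n = 3 each), a difference of 2.59 points. In each of the 4 pairs the groups did not overlap, which gives p = 0.1 in an exact two-sided permutation test, the smallest that 3 against 3 libraries allow, and 0.1 after adjustment over the 4 pairs.

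**Figure D5:**
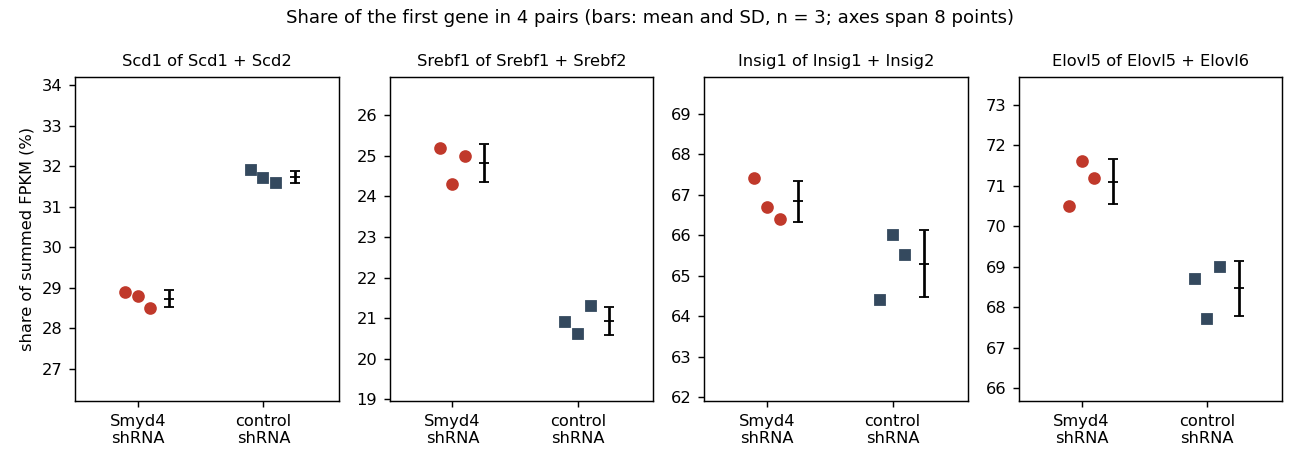
Share of the first gene in the summed FPKM of each of 4 pairs, in the 3 libraries labelled Smyd4 shRNA (circles) and the 3 control libraries (squares), with mean and SD; each axis spans 8 percentage points and does not start at 0. The Scd1 share is lower and the Srebf1 share higher in the labelled libraries.

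The remaining genes of these pathways were counted from fixed lists. Of 16 other sterol pathway genes 15 were tested, of which 8 rose, 1 fell and 6 missed the threshold. This was 60.0% called, beside 48.3% of all genes tested, and the median log2 change was 0.12. Lbr, encoding a nuclear membrane protein that also acts as a sterol reductase, stood at 29.9, 30.2 and 31.1 FPKM in the libraries labelled Smyd4 shRNA, against 22.7, 21.5 and 22.3 FPKM in the control libraries (log2 change 0.45, limma, adjusted p = 1.2e-05). Tmem97, encoding a sterol-responsive membrane protein that binds NPC1, stood at 84.2, 75.5 and 83.8 FPKM in the libraries labelled Smyd4 shRNA and at 58.3, 59.9 and 59.8 FPKM in the control libraries (log2 change 0.45, limma, adjusted p = 8.5e-05). Lbr and Tmem97 did not overlap between groups, and their changes were close to that of Lss. The lower gene was Ggps1, which makes the isoprenoid used for protein prenylation, at a log2 change of -0.14 (limma, adjusted p = 0.0216). Its call was lost without replicate 2 of the labelled libraries (adjusted p = 0.0702) and without control replicate 2 (0.0669) or 3 (0.0697).

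Of 8 genes of the LXR sterol sensor and of cholesterol efflux 6 were tested, of which 2 rose, 1 fell and 3 missed the threshold (50.0% called, beside 48.3% of all genes tested). This share includes Nr1h3, whose call is only a description, as given below, so it is not read as a result. The higher ones were Nr1h3, which encodes LXR-alpha, and Apoe, which encodes a lipid-carrying apolipoprotein, both at low level. Nr1h3 stood at 1.17, 1.53 and 1.34 FPKM in the libraries labelled Smyd4 shRNA, against 0.681, 0.638 and 0.784 FPKM in the control libraries (log2 change 0.62, limma, adjusted p = 0.00231). It averaged 1.02 FPKM over the 6 libraries and 0.701 FPKM in the control libraries. Nr1h3 thus passed the filter at a mean of 1 FPKM only through the labelled libraries, and its call is a description. Apoe stood at 1.92, 2.13 and 1.99 FPKM in the libraries labelled Smyd4 shRNA and at 1.52, 1.46 and 1.07 FPKM in the control libraries (log2 change 0.45, limma, adjusted p = 0.0105). Abca1, which encodes the transporter that exports cholesterol and is itself an LXR target, was lower, at 1.17, 1.21 and 1.03 FPKM in the libraries labelled Smyd4 shRNA, against 2.11, 2.04 and 2.01 FPKM in the control libraries (log2 change -0.64, limma, adjusted p = 0.000298).

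Of 28 other fatty acid genes 26 had a row and 22 were tested, of which 8 rose, 6 fell and 8 missed the threshold. This was 36.4% higher and 27.3% lower, beside 25.1% and 23.3% of all genes tested. Elovl7, an elongase gene, stood at 3.84, 3.41 and 3.77 FPKM in the libraries labelled Smyd4 shRNA, against 1.70, 1.50 and 1.65 FPKM in the control libraries (log2 change 0.98, limma, adjusted p = 1.5e-05). Elovl4, encoding an elongase of very long chains, was also higher (log2 change 0.36, limma, adjusted p = 0.0144). Acsl4, whose ligase activates arachidonic acid and related fatty acids, stood at 25.5, 26.1 and 27 FPKM in the libraries labelled Smyd4 shRNA and at 42.8, 43.6 and 41.7 FPKM in the control libraries (log2 change -0.69, limma, adjusted p = 1.1e-06). Lpin1, encoding a phosphatidate phosphatase, was lower as well (log2 change -0.35, limma, adjusted p = 0.00751). The 3 lists together had 18 genes that rose, 8 that fell and 17 that missed the threshold among 43 tested (60.5% called, median log2 change 0.09). The 18 include Nr1h3, which passed the filter only through the labelled libraries. Over all genes tested 48.3% were called and the median was 0.02, and for the 37 genes 81.1% and 0.11.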

How the data were processed

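The authors deposited FPKM for 22246 Ensembl genes in 6 libraries, and a comparison table of 5616 called genes with a size-factor-normalized signal per library. That deposited table also holds the authors' log2 fold changes and p-values. TopHat2 2.0.9, Bowtie2 2.0.6 and GRCm38 are named per the submitters' processing notes. The counter, annotation, authors' test and use of strand were not given in the sources used here. Deposited FPKM were scaled by the size factors, and every value of the comparison table (100%) was a whole multiple of 1 read within 0.0001, so read numbers were recovered. For 3320 genes they are lower bounds.

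Symbols matched 22134 genes. Values were taken as log2(FPKM + 0.5), genes averaging at least 1 FPKM were kept, and limma 3.58.1 (trend, R 4.3.3) compared the groups. Benjamini-Hochberg adjustment of p-values ran over all 11325 genes at 0.05. A change on this scale understates that of low genes. Pair shares were tested by exact permutation. edgeR 4.0.16 and DESeq2 1.42.0 on recovered reads were alternatives. Fits were tested on simulated data. Transcript likeness came from BLAST 2.17.0 on GENCODE M21, which also gave coordinates of genes outside the authors' table.

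Members and lists were chosen with earlier results of these data known. Named with values in every library are, per role, the 3 called members with the largest change, called members in the less frequent direction and the 2 with the highest FPKM. Insig2, Acly, Elovl5 and Elovl6 were added after their values were seen. For other lists, they are the 2 largest called changes per direction.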

Additional observations from a re-analysis of the deposited data

How the results depend on the processing

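Gene results were recomputed under 16 alternatives, except that genes averaging under 5 FPKM, Npc1 among them, were not tested with a filter at that mean; the pair shares were recomputed without each library in turn. Of the 30 called genes 23 kept the call under every alternative that tested them, 7 lost it under at least 1, and none changed sign while called; of the 7 others, 4 were never called. The 7 were Hsd17b7, Insig2, Npc2, Mylip, Acly, Scd1 and Elovl5. Where a call was lost, the cause was not tested. With an equal total per library, 1 mevalonate gene (Hmgcs1) and 1 fatty acid gene (Elovl6) were called lower, 4 fatty acid genes were called higher, and Smyd4 passed (log2 change -0.11, limma, adjusted p = 0.0447). Quantile normalization also left 4 fatty acid genes higher. Without a filter, 0 sterol handling genes were higher; with a filter at a mean of 5 FPKM, 0 LXR genes were called in either direction; and DESeq2 called 0 other sterol pathway genes lower. edgeR called 22 of the 37 genes higher and 7 lower, beside 3205 higher and 3618 lower among the 13774 genes it tested. DESeq2 called 22 and 6 of the 37 genes, beside 2555 and 3010 among the 22245 genes entered.

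Leaving out 1 library at a time gave 19 to 22 of the 37 genes higher and 5 to 6 lower, and 2299 to 2567 genes higher and 2274 to 2442 lower in the whole table. Lower sterol branch genes numbered 1 to 2, higher sterol handling genes 0 to 1, and lower other sterol pathway genes 0 to 1. The pair differences ran from -3.02 to -2.86 points for Scd1, 3.75 to 4.17 for Srebf1, 1.06 to 1.85 for Insig1 and 2.2 to 2.89 for Elovl5.

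Libraries with equal replicate numbers did not deviate together (correlations -0.032, 0.018 and 0.007), and unequal numbers gave -0.059 to 0.053. Values this near 0 cannot settle whether the numbers pair the libraries, and the labels state no pairing. With the replicate block, 20 of the 37 genes were higher and 7 lower, and 2667 and 2474 in the whole table. Fdps had the fewest recovered reads, 139 in its shallowest library.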
